A study of Danio rerio with 9 samples.

Results

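Clotting of zebrafish blood rests, as in other vertebrates, on proteins that the liver secretes into the plasma, and the 9 genes described here encode a core set of them. They are the protease precursor genes f2, f7, f9b and f10, the cofactor gene f5, the fibrinogen chain genes fga, fgb and fgg, and plg, the gene of the precursor of the enzyme that dissolves fibrin. They were chosen by gene name from a table of 32520 genes. Each name belonged to 1 row, and all 9 genes passed the filter on low counts that left 16766 genes to test. RNA sequencing of polyA RNA was done on livers microdissected from wild-type larvae. Each of the 3 treatments lasted 24 h and has 3 libraries: a vehicle, metronidazole at 1 mM and metronidazole at 10 mM. The larvae of every group were wild-type, and the labels give no transgene and no larval age. Nor do they say whether a library holds 1 animal or a pool. Each p-value therefore judges a difference between groups of these libraries, and the spread between the libraries may be technical. Metronidazole is the nitroimidazole drug that is given to transgenic animals carrying a bacterial nitroreductase in order to kill the cells that express it. These libraries measure the drug in animals with no such label.

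In vertebrates, injury exposes tissue factor, which binds factor VII and activates factor X. Factor IX, with factor VIII as cofactor, also activates factor X. Factor X with its cofactor factor V turns prothrombin, the product of f2, into thrombin. Thrombin cuts fibrinogen, a protein of paired alpha, beta and gamma chains, and the product polymerises into the fibrin mesh of a clot, which plasmin later dissolves. Factors II, VII, IX and X carry glutamates that a vitamin K dependent carboxylase modifies in the liver cell, and fibrinogen is an acute phase protein in mammals.

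Total counts ran from 30 to 41.3 M per library. The defining genes of hepatocytes were abundant, with 8 of 9 listed markers matched and detected and a summed level of 144524 to 179932 CPM (counts per M counts of the library). Markers of the exocrine pancreas (4 of 5 matched) summed to 2348 to 7607 and markers of intestine (4 matched, with fabp6 at 0 in all libraries) to 2083 to 2711. Most of the intestine sum lay on apoa4b.1, with a vehicle mean of 2393 CPM, scaled as described below. On the same scale fabp2 had a vehicle mean of 68.7 and vil1 of 0.304. Thrombocyte markers, which would report cells that carry clotting proteins in blood, summed to 11.1 to 20.4. The vehicle and 10 mM libraries overlapped in the summed levels of these 4 lists. They did not overlap for macrophage markers (6 of 6 matched, 49.2 to 59.9 in vehicle and 64.0 to 75.6 at 10 mM) or biliary markers (5 of 5 matched, 3112 to 3313 and 3486 to 3667). Within these lists the single genes differed. By the edgeR test described below, 1 of 6 macrophage markers rose at 10 mM against vehicle, marco (log2 0.74). The others ran from -0.21 (mfap4.1) to 0.31 (cd74a). Of the 5 biliary markers 0 passed, with log2 changes from -0.04 (sox9b) to 0.43 (krt18a.1). The part of these cells in the results below was not tested. In bulk tissue, fewer cells of a type and less RNA per cell cannot be told apart. One library stood apart, 1 mM replicate 3, which scored -46.9 on principal component 2 (a 17.7% share of all variance) where the rest ranged from -2.14 to 12.7. The library 10 mM replicate 3 was run on lane 8, by the column names, and all others on lane 7.

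The effect of the higher dose was read from the 10 mM and vehicle libraries, between which the genes of factor IX (f9b) and factor V (f5) rose 1.64-fold and 1.52-fold. The 3 fibrinogen chain genes and plg stood higher in every 10 mM library than in any vehicle library, and f7 and f10 stood lower, but these 6 did not pass the test across all genes. Prothrombin, f2, differed least. Levels below are CPM, counts per M of a library size scaled by TMM factors, which allows comparison of 1 gene between libraries but not of different genes, because CPM does not account for transcript length. Changes were tested with the edgeR quasi-likelihood test over all 16766 genes with Benjamini-Hochberg adjustment, and a gene passed at an adjusted p under 0.05.

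The plot of levels in the 9 libraries shows each gene on its own axis.

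**Figure D1:**
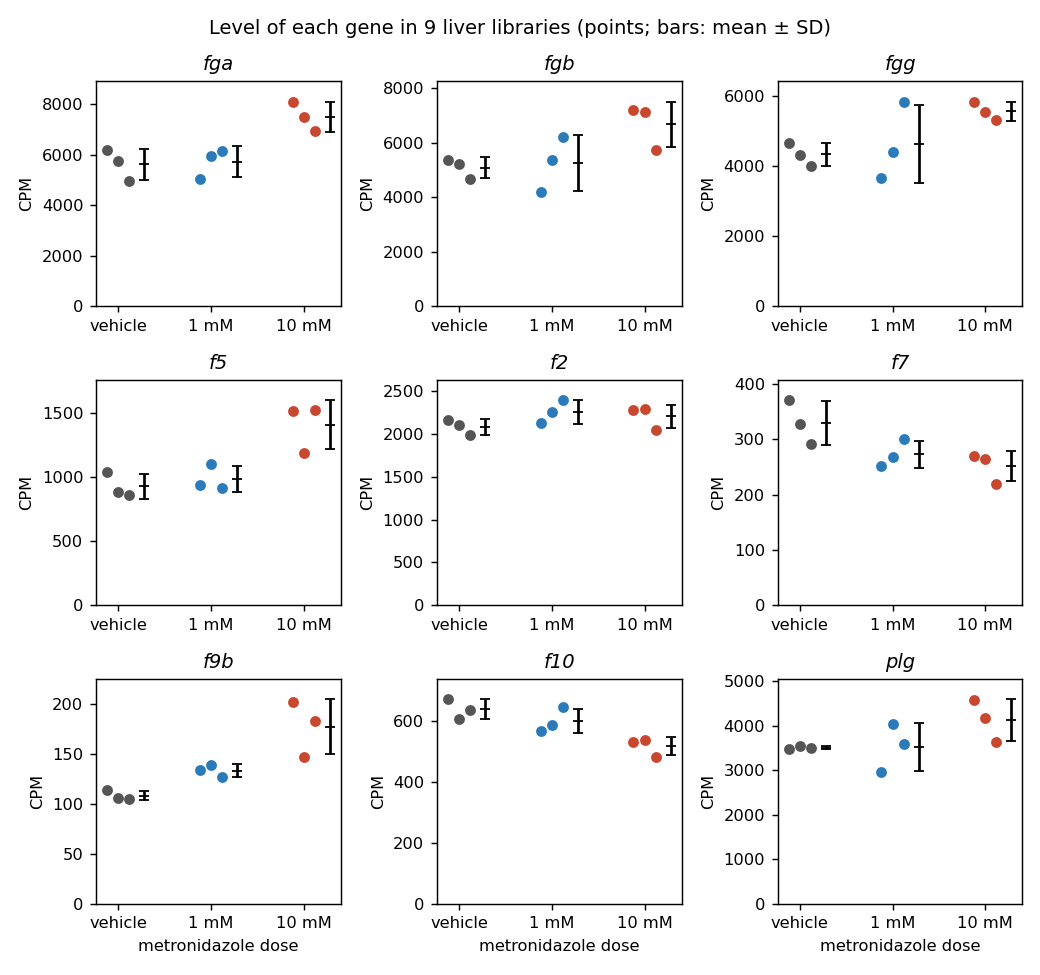
Level in CPM (y axis, from 0) of each of the 9 genes in vehicle, 1 mM and 10 mM metronidazole livers (x axis). Points are the 3 libraries of a group and bars the mean ± SD. For f9b and f5 the 10 mM points lie above all vehicle and 1 mM points, and for f10 they lie below them.

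Among the fibrinogen chains, fga (ENSDARG00000020741), which encodes the alpha chain, was at 6179, 5748 and 4958 CPM in vehicle, 5039, 5974 and 6174 at 1 mM, and 8116, 7491 and 6937 at 10 mM. The 10 mM libraries were the highest of all 9, and the 1 mM libraries overlapped those of vehicle. The log2 change at 10 mM against vehicle was 0.42 (SE 0.15, 95% interval 0.08 to 0.75, adjusted p = 0.0843 by edgeR). The beta chain gene fgb (ENSDARG00000008969) was at 5388, 5236 and 4663 CPM in vehicle, 4179, 5383 and 6221 at 1 mM, and 7192, 7146 and 5733 at 10 mM. Its 10 mM libraries stood above vehicle but not above 1 mM replicate 3 in every case, and the log2 change was 0.39 (SE 0.17, adjusted p = 0.150 by edgeR). The gamma chain gene fgg (ENSDARG00000037281) was at 4652, 4309 and 4007 CPM in vehicle, 3643, 4386 and 5812 at 1 mM, and 5830, 5521 and 5290 at 10 mM. The 1 mM group was wide, and its replicate 3 reached the range of the 10 mM group. The log2 change of fgg at 10 mM against vehicle was 0.36 (SE 0.18, adjusted p = 0.191 by edgeR).

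Whether the fibrinogen genes passed depended on the libraries in the fit, and all 3 passed without 1 mM replicate 3. That library is in neither group of this comparison, but it is part of the single fit from which all groups take their spread. Why the calls moved was not tested. Without that library the adjusted p by edgeR at 10 mM against vehicle was 0.0196 for fga, 0.0381 for fgb and 0.0275 for fgg, with log2 changes of 0.43, 0.41 and 0.37. With only the 6 libraries compared it was 0.0199, 0.0301 and 0.0237. With 1 mM replicate 3 kept, fga but neither fgb nor fgg also passed with the DESeq2 test (adjusted p = 0.0141), with the 5 CPM filter (0.0388 by edgeR) and without 1 mM replicate 1 (0.0471 by edgeR). The sizes of the changes moved little, and the standard errors fell from 0.15 to 0.12 for fga, from 0.17 to 0.13 for fgb and from 0.18 to 0.11 for fgg without the library.

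Fibrinogen transcripts made up a visible part of all reads. In vehicle, 1.59, 1.54 and 1.39% of a library's counts lay on the 3 chain genes, at 1 mM 1.42, 1.65 and 1.60%, and at 10 mM 2.07, 1.94 and 1.84%. The 10 mM shares were all above the other 6. The mean was 1.51 ± 0.104% in vehicle, 1.56 ± 0.120% at 1 mM and 1.95 ± 0.115% at 10 mM (SD, n = 3 each). The difference of 0.446 percentage points between 10 mM and vehicle gave p = 0.1 in a two-sided exact permutation test, the smallest p that 3 against 3 libraries allow, as did the difference of 0.396 points between 10 mM and 1 mM. The difference of 0.051 points between 1 mM and vehicle gave p = 0.5 by the same exact test.

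The balance between the chains, which are assembled in equal numbers into the protein, was compared within each library, where scaling cancels. The log2 ratio of fga to fgb counts was 0.14 ± 0.05 in vehicle, 0.14 ± 0.14 at 1 mM and 0.17 ± 0.10 at 10 mM. The ratio of fga to fgg was 0.38 ± 0.06, 0.33 ± 0.21 and 0.44 ± 0.04, and that of fgb to fgg 0.24 ± 0.04, 0.20 ± 0.10 and 0.26 ± 0.13 (SD, n = 3 each). In 1 mM replicate 3 all of these ratios were the lowest of the 9 libraries, at -0.01, 0.09 and 0.10. The 9 differences between groups ran from -0.04 to 0.10 (exact permutation test, two-sided, p from 0.3 to 1, adjusted p = 1 over the 9). The smallest p that the exact permutation test allows for 3 against 3 libraries is 0.1, so no ratio could pass at 0.05. The test therefore cannot decide whether the balance between the chains changed. Transcript length was not taken into account, so the ratios do not compare the number of molecules of each chain.

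**Figure D2:**
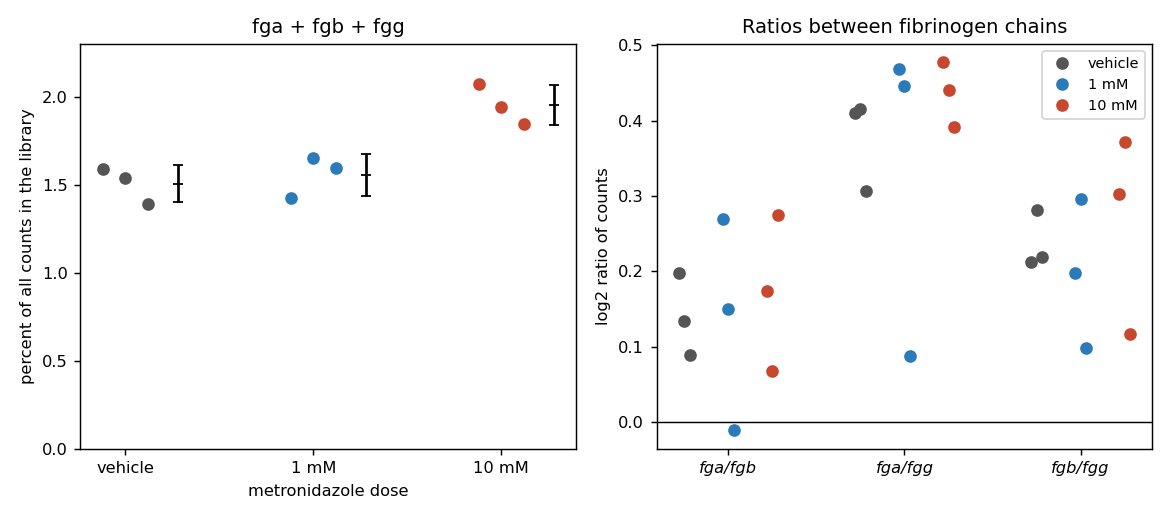
Left, percent of all counts of a library (y axis, from 0) that lie on fga, fgb and fgg together, by metronidazole dose, with bars for the mean ± SD. Right, log2 ratio of counts between pairs of chains in each library (y axis), where the 10 mM shares of 1.84 to 2.07% stand above the others and the ratios of the groups overlap.

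The cofactor gene f5 (ENSDARG00000055705), whose product speeds the conversion of prothrombin, was at 1040, 884 and 862 CPM in vehicle, 940, 1102 and 920 at 1 mM, and 1517, 1194 and 1529 at 10 mM. Every 10 mM library was above the other 6, and the 1 mM and vehicle libraries overlapped. The gene rose by 0.61 on the log2 scale against vehicle (SE 0.15, 95% interval 0.28 to 0.94, adjusted p = 0.0152 by edgeR) and by 0.52 against 1 mM (SE 0.15, adjusted p = 0.0323 by edgeR). The call against vehicle was lost without vehicle replicate 2, vehicle replicate 3, 10 mM replicate 1 or 10 mM replicate 3 (adjusted p from 0.0607 to 0.0763). The call against 1 mM was lost in 6 of 17 alternatives (adjusted p from 0.0565 to 0.128), among them without vehicle replicate 2, 1 mM replicate 1, 10 mM replicate 1 or 10 mM replicate 3.

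Of the protease precursors, f9b (ENSDARG00000029493), a zebrafish gene named for factor IX, had the largest change among the 9 genes at 10 mM. It was at 114, 106 and 105 CPM in vehicle, 134, 139 and 126 at 1 mM, and 201, 147 and 183 at 10 mM. The 3 groups did not overlap, with 1 mM between vehicle and 10 mM. The gene rose by 0.71 on the log2 scale at 10 mM against vehicle (SE 0.13, 95% interval 0.42 to 1.00, adjusted p = 0.00280 by edgeR), and this call held under all 17 alternatives, with adjusted p from 8.41e-06 to 0.0206. Against 1 mM it rose by 0.41 (SE 0.13, adjusted p = 0.0482 by edgeR), a call that 12 of 17 alternatives did not keep. Its paralog f9a (ENSDARG00000010097) had a log2 change of -0.10 (SE 0.14, adjusted p = 0.697 by edgeR) at 10 mM against vehicle, with 26.7, 21.6 and 19.7 CPM in vehicle and 21.7, 21.7 and 20.3 at 10 mM. The difference between the changes of f9b and f9a was not tested.

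The factor VII gene f7 (ENSDARG00000034862), whose product starts clotting with tissue factor, was at 371, 328 and 291 CPM in vehicle, 252, 268 and 300.0 at 1 mM, and 270, 265 and 220 at 10 mM. All 10 mM libraries were below all vehicle libraries, and the 1 mM group overlapped both. The log2 change at 10 mM was -0.39 (SE 0.14, 95% interval -0.70 to -0.08, adjusted p = 0.0781 by edgeR). The factor X gene f10 (ENSDARG00000088581), whose product cuts prothrombin, was at 671, 606 and 634 CPM in vehicle, 567, 587 and 644 at 1 mM, and 530, 538 and 482 at 10 mM. Its 10 mM libraries were the lowest of the 9, and the log2 change against vehicle was -0.30 (SE 0.13, 95% interval -0.58 to -0.03, adjusted p = 0.127 by edgeR). Without 1 mM replicate 3 the adjusted p by edgeR was 0.0341 for f7 and 0.0509 for f10.

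Both of these genes belong to a run of related genes that lie side by side, in the order f7l, f7, f7i, f10 and prozb in the RefSeq annotation of the GRCz12tu assembly. All are named for clotting proteins, prozb for protein Z, which in mammals helps to inhibit factor X. At 10 mM against vehicle the log2 changes were -0.29 (SE 0.15) for f7l, -0.25 (SE 0.16) for f7i and -0.35 (SE 0.14) for prozb, so that all 5 estimates lay below 0. The vehicle and 10 mM libraries overlapped for f7l and f7i and did not for prozb, which was at 228, 208 and 192 CPM in vehicle and 181, 169 and 141 at 10 mM. By edgeR 0 of the 5 passed after adjustment, while the DESeq2 test passed 1 of them, f7. The 3 with an unadjusted p under 0.05 by edgeR were prozb and the genes f7 and f10 already described. Among all 16766 tested genes, 8727 estimates lay below 0, 20.4% were lower without overlap and 7.43% passed as lower by edgeR. The share of all genes at that unadjusted p is not given here. Reads that match more than 1 of the f7 genes could have been split or dropped in counting, so the values of single genes of that group are uncertain.

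The prothrombin gene f2 (ENSDARG00000036041) was at 2168, 2104 and 1984 CPM in vehicle, 2124, 2252 and 2394 at 1 mM, and 2282, 2292 and 2052 at 10 mM. The groups overlapped in all 3 comparisons. Its log2 change at 10 mM against vehicle was 0.08 (SE 0.13), with a 95% interval from -0.20 to 0.37. The plasminogen gene plg (ENSDARG00000023111) was at 3474, 3547 and 3511 CPM in vehicle, 2959, 4046 and 3584 at 1 mM, and 4574, 4186 and 3630 at 10 mM. Vehicle was tight, with an SD of 36.6 CPM, and the 10 mM libraries stood above it by a margin that was small for replicate 3. The log2 change was 0.23 (SE 0.16, 95% interval -0.11 to 0.57, adjusted p = 0.354 by edgeR).

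Set against all genes at 10 mM against vehicle, 2 of the 9 genes passed by edgeR, where 17.2% of all tested genes did, 9.74% as higher and 7.43% as lower. The share of the 9 that passed is near that background. The vehicle and 10 mM libraries did not overlap in 8 of the 9 genes, all but f2, with 6 higher and 2 lower, where 40.6% of all tested genes did not overlap, 20.2% as higher and 20.4% as lower. The median log2 change was 0.36 over the 9 genes and -0.03 over all genes tested. The number that passed depended on the fit, at 7 with only the 6 libraries compared, 6 without 1 mM replicate 3, 5 when genes had to reach 5 CPM in 3 libraries and 4 with the DESeq2 test, and at 1 without vehicle replicate 2, vehicle replicate 3, 10 mM replicate 1 or 10 mM replicate 3.

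The lower dose was compared with vehicle in the same way. By edgeR 0 of the 9 passed after adjustment, as with the DESeq2 test, where 0.984% of all tested genes passed by edgeR (0.889% as higher). In each test 1 of the 9 had an unadjusted p under 0.05, a looser threshold for which the share of all genes is not given here. That gene was f9b, whose 1 mM libraries of 126 to 139 CPM stood above all vehicle libraries (log2 0.30, SE 0.13, adjusted p = 0.418 by edgeR). It was the 1 of 9 genes whose groups did not overlap, where 17.7% of all tested genes did not (9.66% as higher and 8.03% as lower). The median log2 change of the 9 genes was 0.05, and f7 had the lowest value at -0.27 (SE 0.14, 95% interval -0.58 to 0.03). The intervals of fga (-0.31 to 0.36), fgb (-0.33 to 0.42), fgg (-0.28 to 0.47) and plg (-0.33 to 0.35) spanned 0 on both sides.

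At 10 mM against 1 mM, which asks whether the doses differ, f5 and f9b passed, 2 of 9 genes where 18.8% of all tested genes passed, 9.39% as higher and 9.41% as lower. This comparison and the one against vehicle share the 10 mM libraries. The groups did not overlap for f9b, f5 and fga, which were higher at 10 mM, or for f10, which was lower, 4 of 9 genes where 33.7% of all tested genes did not overlap (16.5% as higher and 17.1% as lower). The log2 change of fga was 0.39 (SE 0.15, adjusted p = 0.10 by edgeR), that of fgb 0.35 (SE 0.17) and that of fgg 0.27 (SE 0.18). Without 1 mM replicate 3 these 3 genes and f5 passed and f9b did not, so 4 genes were called. No gene passed without vehicle replicate 2, 1 mM replicate 1, 10 mM replicate 1 or 10 mM replicate 3, and 1 passed without vehicle replicate 1, vehicle replicate 3 or 1 mM replicate 2.

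**Figure D3:**
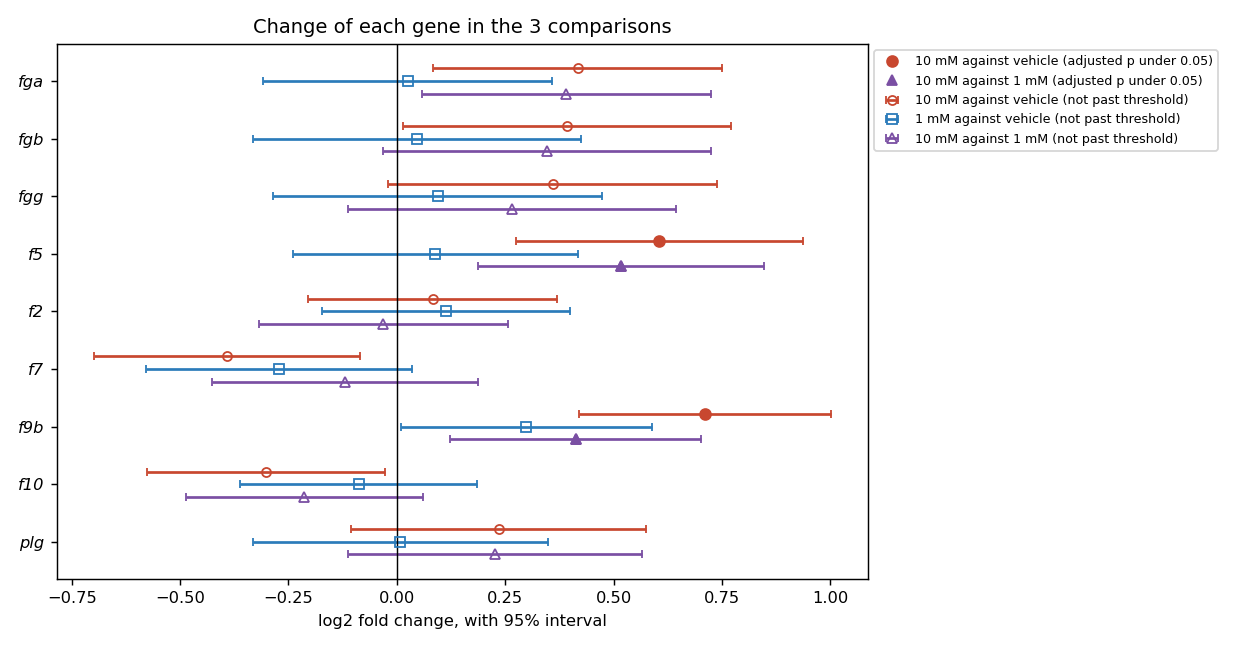
Log2 fold change (x axis) of each of the 9 genes in the comparisons 10 mM against vehicle (circles), 1 mM against vehicle (squares) and 10 mM against 1 mM (triangles), with 95% intervals. Filled symbols passed an adjusted p under 0.05 by edgeR, which are f5 and f9b in the comparisons of 10 mM with vehicle and with 1 mM.

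Further genes of the clotting pathway were compared at 10 mM against vehicle. Of 18 further coagulation genes listed, 15 matched a row and 14 were tested, of which 2 rose and 12 did not pass, with a median log2 change of 0.03, where 17.2% of all tested genes passed and 9.74% passed as higher. The gene of von Willebrand factor, vwf (ENSDARG00000077231), which in mammals tethers platelets and carries factor VIII, was at 1.83, 1.61 and 2.34 CPM in vehicle, 5.85, 8.04 and 4.09 at 1 mM, and 8.17, 7.73 and 8.73 at 10 mM. Every treated library was above every vehicle library. It rose by 2.09 on the log2 scale at 10 mM (SE 0.25, adjusted p = 0.000134 by edgeR) and by 1.63 at 1 mM (SE 0.25, adjusted p = 0.0122 by edgeR), the latter lost without vehicle replicate 1 or 2 (0.0700 and 0.0926). vwf is made by endothelial cells in mammals and stood on the list of endothelial markers, of which 6 of 8 matched. That list summed to 212 to 216 CPM of the raw totals in vehicle, 149 to 272 at 1 mM and 208 to 221 at 10 mM. The other 5 matched endothelial markers, kdrl, cdh5, tie1, tek and stab2, did not pass at 10 mM against vehicle.

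The protease-activated receptor gene f2rl1.2 (ENSDARG00000077540), of a family of receptors cut by clotting proteases in mammals, was at 3.72, 2.81 and 2.86 CPM in vehicle and 6.76, 6.22 and 10.0 at 10 mM, with 3.86 to 5.26 at 1 mM. It rose by 1.29 on the log2 scale at 10 mM against vehicle (SE 0.23, adjusted p = 0.00192 by edgeR), without overlap. The gene of a factor XIII subunit, f13b (ENSDARG00000101353), was low and uneven, at 3.75, 1.72 and 3.31 CPM in vehicle, 0.741, 2.66 and 7.62 at 1 mM, and 1.04, 0.915 and 0.714 at 10 mM. Its 10 mM libraries were below all vehicle libraries, but f13b did not pass at 10 mM against vehicle by edgeR. It fell against 1 mM (log2 -2.03, SE 0.62, adjusted p = 0.0395 by edgeR), although the 1 mM and 10 mM groups overlapped. Of 16 alternatives 9 did not keep that call, and without 1 mM replicate 3 the log2 change was -0.91 (adjusted p = 0.207 by edgeR). The factor VIII gene f8 lay between 0.635 and 2.83 CPM in all libraries, and the tissue factor genes f3a and f3b did not pass at 10 mM.

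Several genes listed for the vitamin K cycle or for processing of the vitamin K dependent factors were higher at 10 mM. All 10 genes listed for the vitamin K cycle and precursor processing were tested, and 5 rose and 5 did not pass, with a median log2 change of 0.26, against 9.74% of all tested genes that passed as higher. The oxidoreductase gene aifm2 (ENSDARG00000077549), whose human product reduces vitamin K and ubiquinone, was at 20.5, 23.5 and 24.8 CPM in vehicle, 23.0, 26.3 and 27.5 at 1 mM, and 93.2, 76.4 and 100.4 at 10 mM. The 10 mM libraries were far above the other 6, and the gene rose by 1.97 on the log2 scale (SE 0.14, adjusted p = 7.94e-06 by edgeR). The carboxylase gene ggcx (ENSDARG00000067805), which adds the carboxyl groups to factors II, VII, IX and X, was at 88.2, 87.8 and 70.4 CPM in vehicle, 95.7, 99.4 and 95.3 at 1 mM, and 105, 105 and 123 at 10 mM. Its groups did not overlap, and it rose by 0.43 at 10 mM against vehicle (SE 0.13, adjusted p = 0.0356 by edgeR). The protease gene furina (ENSDARG00000062909), of a family that trims propeptides, rose from 95.9 ± 14.5 to 148 ± 8.21 CPM (SD, n = 3 each, log2 0.63, SE 0.14, adjusted p = 0.00681 by edgeR).

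The other genes of that list to rise were nqo1 (ENSDARG00000010250), a quinone reductase gene, by 0.51 (SE 0.14, adjusted p = 0.0231 by edgeR), and the calcium binding protein gene calub (ENSDARG00000005115) by 0.71 (SE 0.19, adjusted p = 0.0236 by edgeR). The means of calub were 5.44 CPM in vehicle and 8.90 at 10 mM. Its paralog calua, with means of 22.9 and 23.3 CPM, did not pass against vehicle. Nor did furinb, the paralog of furina, with means of 34.1 and 33.0 CPM. The classic reductase genes vkorc1 (log2 -0.11, SE 0.16) and vkorc1l1 (log2 0.08, SE 0.23) did not pass against vehicle, and vkorc1 fell against 1 mM (log2 -0.50, SE 0.16, adjusted p = 0.0435 by edgeR), a call that 11 of 17 alternatives did not keep. The calls of aifm2 and furina held under all alternatives tried, while ggcx lost its call in 7 of 17 (adjusted p from 0.0540 to 0.165), nqo1 and calub in 5 each. The list had 2 to 5 passing genes over the alternatives, with 2 without any 1 of the vehicle libraries and 3 without any 1 of the 10 mM libraries. The list was assembled with earlier results of these data known, so its count is a description.

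Inhibitors of clotting passed at a share near that of all genes. Of 18 anticoagulant genes listed, 13 matched and were tested, of which 2 rose and 11 did not pass, with a median log2 change of -0.05, where 17.2% of all tested genes passed and 9.74% passed as higher. The tissue factor pathway inhibitor gene tfpia (ENSDARG00000034718) was at 29.0, 29.6 and 33.9 CPM in vehicle and 48.2, 42.7 and 40.3 at 10 mM, and rose by 0.51 without overlap (SE 0.13, adjusted p = 0.0149 by edgeR). The related gene tfpi2 (ENSDARG00000061351) went from 1.90 ± 0.0200 to 3.49 ± 1.23 CPM (SD, n = 3 each, log2 0.87, SE 0.27, adjusted p = 0.0413 by edgeR). Both calls were lost without vehicle replicate 1, vehicle replicate 2 or 10 mM replicate 1 (adjusted p from 0.0730 to 0.188), and that of tfpi2 also without vehicle replicate 3, 1 mM replicate 2 or 10 mM replicate 3. The antithrombin gene serpinc1 (ENSDARG00000042684), the main inhibitor of thrombin, had a log2 change of 0.17 (SE 0.13, adjusted p = 0.444 by edgeR). The protein C gene proca (ENSDARG00000093079), an inactivator of factor V in mammals, had 106, 83.2 and 92.3 CPM in vehicle and 82.5, 70.4 and 67.0 at 10 mM (log2 -0.35, SE 0.14, adjusted p = 0.108 by edgeR) and fell against 1 mM (log2 -0.48, SE 0.14, adjusted p = 0.0333 by edgeR), a call that 7 of 17 alternatives did not keep. The gene serpina10a, named for an inhibitor that acts with protein Z, was lower at 10 mM than at 1 mM (log2 -0.33, SE 0.10, adjusted p = 0.0443 by edgeR). Its means were 32.4 CPM in vehicle, 40.2 at 1 mM and 32.0 at 10 mM, so 10 mM lay near vehicle. Of 17 alternatives 12 did not keep this call.

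On the side of clot removal, the plasmin inhibitor genes serpinf2a (log2 0.07, SE 0.15) and serpinf2b (log2 -0.01, SE 0.15) and the plasminogen activator gene plat (log2 -0.06, SE 0.25) did not pass at 10 mM against vehicle.

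**Figure D4:**
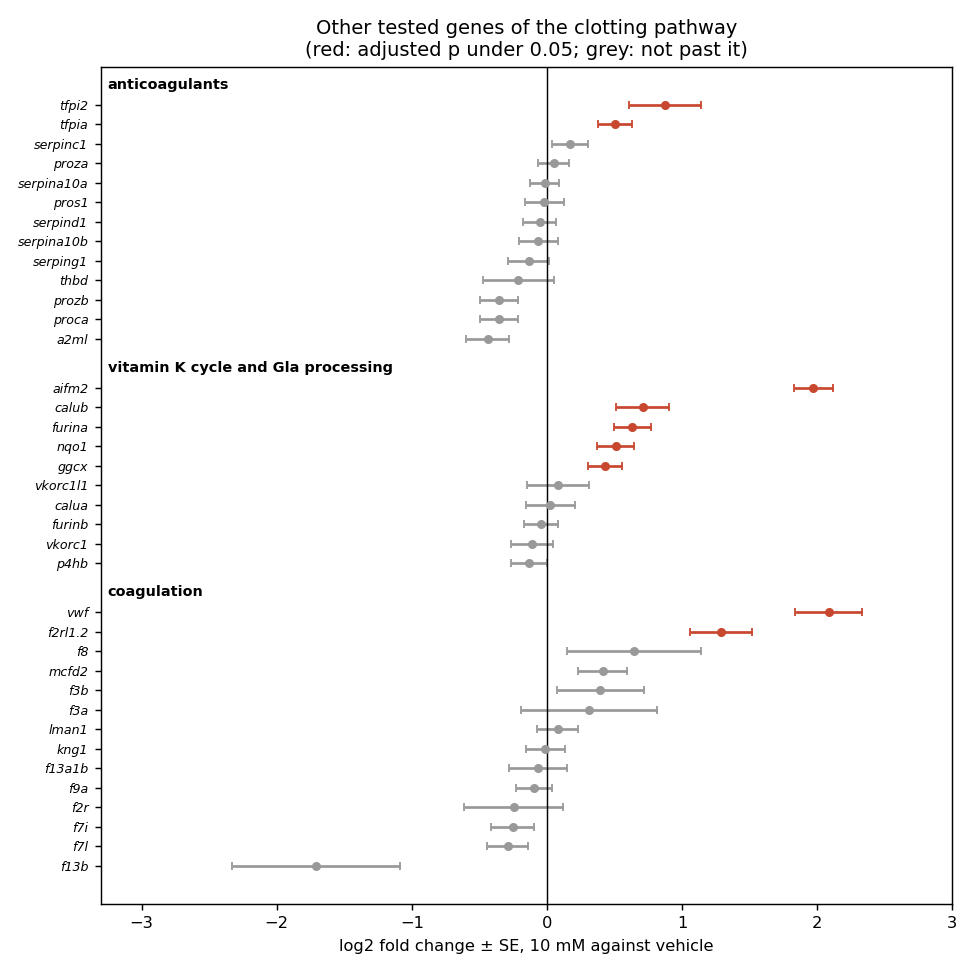
Log2 fold change ± SE at 10 mM against vehicle (x axis) of the other tested genes of coagulation, the vitamin K cycle and anticoagulants. Red points passed an adjusted p under 0.05 by edgeR, with vwf at 2.09 and aifm2 at 1.97 the farthest to the right, and grey points did not.

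**Figure D5:**
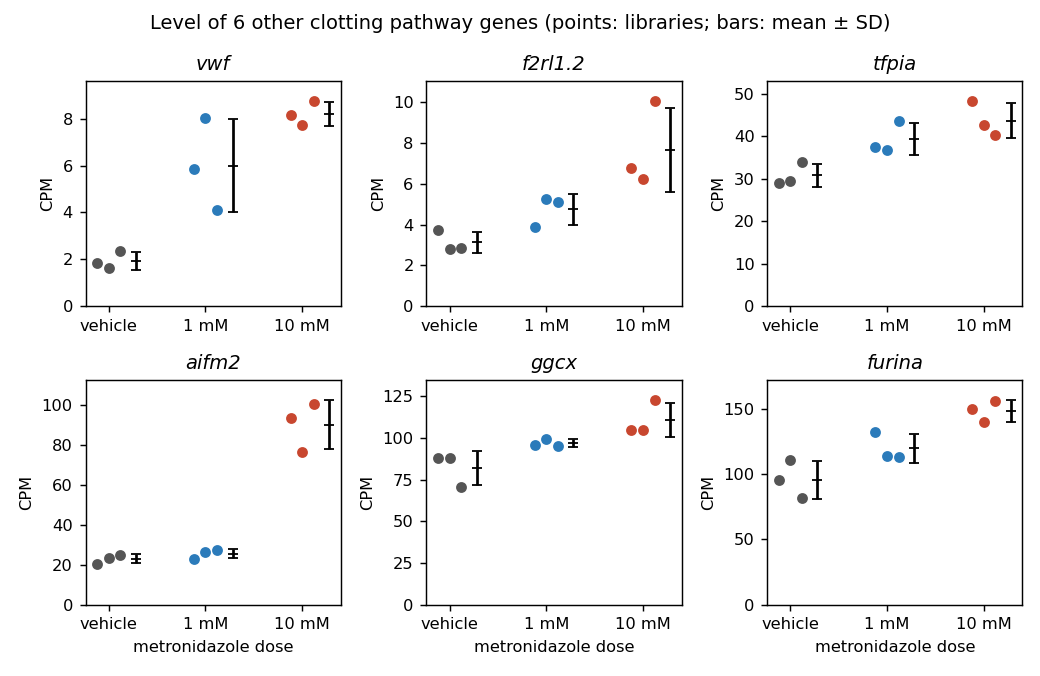
Level in CPM (y axis, from 0) of vwf, f2rl1.2, tfpia, aifm2, ggcx and furina by metronidazole dose, with a point for each library and bars for the mean ± SD. The 10 mM points of all 6 genes lie above the vehicle points, and so do the 1 mM points of vwf, f2rl1.2, tfpia, ggcx and furina.

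The genes whose levels followed f9b most closely over the 9 libraries, among 7141 named genes with a mean of at least 5 CPM, were spty2d1, c6, mapkapk2a, shcbp1 and ehd1a, with Pearson correlations of log2(CPM + 1) from 0.968 to 0.984. For the mean of the 3 fibrinogen genes they were eif3jb, get4, med31, psmd4a and atf4a, from 0.973 to 0.979. These values are descriptions over libraries that fall into 3 groups, and any gene that differs between the groups in the same way will score high.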

How the data were processed

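Larval livers were sequenced by poly A RNA-seq in 9 libraries, 3 each for vehicle, 1 mM and 10 mM metronidazole. Per the submitters' processing notes, reads were handled with HISAT2 and featureCounts on GRCz11. For versions, annotation release, strand setting and multi-mapping reads, nothing is given in the sources used here. The values as deposited are raw read counts for each gene. Of counts from 1 to 20, 75.2 to 82.9% were even, against 48.7 to 51.0% above 1000, as when both mates of a pair are counted, so halved counts were an alternative.

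Genes passed filterByExpr (minimum count 10, minimum total 15) in edgeR 4.0.16 (R 4.3.3). All 9 libraries entered a single fit with TMM factors and 1 mean for each treatment, tested by quasi-likelihood, two-sided, with Benjamini-Hochberg adjustment over 16766 genes and a threshold of 0.05. A standard error is the log2 change over the square root of F, and 95% intervals use the fit's degrees of freedom. Ratios and shares were tested by exact permutation. The alternatives were DESeq2 1.42.0 size factors or its test, no filter, a filter of 5 CPM in 3 libraries, 6 libraries only, the replicate number as a block, library sizes without mitochondrially encoded and the 20 most abundant genes, halved counts, and leaving out each library. The pipeline was tested on simulated data.

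The members and lists were chosen with earlier results of these data known. Of each list, up to 4 genes past the threshold in any comparison, by smallest p at 10 mM, were named, and further genes were named for their role after their values were seen. List genes were matched by deposited name, by a table of Ensembl names or by name in capitals. Gene sequences and positions in GRCz11 were not analysed here. Results for some genes of the lists are not reported here.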

Additional observations from a re-analysis of the deposited data

How the results depend on the processing

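Of 459 values of the 9 genes over 17 alternatives, 408 kept their direction and their side of the threshold, 22 lost and 19 gained a call, and 10 changed sign. At 10 mM against vehicle the 2 passing genes became 4 with the DESeq2 test, 5 with the 5 CPM filter and 7 with the 6 libraries compared, and 1 to 6 when a library was left out. Against 1 mM the 2 passing genes became 1 with no count filter or the 5 CPM filter, 0 with the 6 libraries compared or the replicate block, and 0 to 4 when a library was left out. Over all genes at 1 mM against vehicle, 165 passing genes became 470 with the DESeq2 test, 487 with no filter, 96 with the 5 CPM filter, 103 with the 6 libraries compared, 109 with the replicate block and 21 to 202 when a library was left out. Leaving out a library gave 1854 to 4066 genes for 10 mM against vehicle, where the count was 2878, and 1963 to 3902 for 10 mM against 1 mM, where it was 3153. The replicate block is only a shared number: the deviations of same-numbered libraries correlated from -0.191 to 0.126, and at 10 mM against vehicle f9b and f5 passed with it too, while ggcx and tfpi2 lost their calls.

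Signs changed where values were near 0, in leaving out 1 library. At 1 mM against vehicle the log2 change ranged from -0.057 to 0.10 for fga, -0.094 to 0.18 for fgb, -0.11 to 0.23 for fgg and -0.10 to 0.11 for plg, and for f2 at 10 mM against 1 mM from -0.064 to 0.028. The fibrinogen share at 1 mM minus vehicle ranged from -0.00674 to 0.118 percentage points. The log2 ratio of fga to fgb ranged from -0.071 to 0.070 for 1 mM minus vehicle, -0.038 to 0.10 for 10 mM minus 1 mM and -0.019 to 0.084 for 10 mM minus vehicle. That of fga to fgg ranged from -0.11 to 0.079 and from -0.021 to 0.17 in the comparisons of 1 mM with vehicle and of 10 mM with 1 mM. That of fgb to fgg ranged from -0.089 to 0.0094 for 1 mM minus vehicle and from -0.028 to 0.10 for 10 mM minus vehicle. At 10 mM against vehicle the standard error of f5 fell from 0.153 to 0.129 without 1 mM replicate 3 and to 0.124 with only the 6 libraries compared. At 10 mM against 1 mM it rose from 0.152 to 0.175 with the 6 libraries compared. The cause of the moves between alternatives was not tested.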

Other observations

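Regulators of liver gene expression moved in both directions at 10 mM. Of 13 tested liver transcription factor genes, 1 rose and 4 fell by edgeR (median log2 change -0.12), where 9.74% of all tested genes passed as higher and 7.43% as lower. The gene that rose was cebpa (ENSDARG00000036074), which rose from 25.4 ± 2.27 to 56.7 ± 14.3 CPM (SD, n = 3 each, log2 1.16, SE 0.20, adjusted p = 0.00139 by edgeR). Those that fell were foxa1 (log2 -0.88, SE 0.15, adjusted p = 0.00128 by edgeR), nr2f2 (log2 -0.65, SE 0.14, adjusted p = 0.00714 by edgeR), prox1a (log2 -0.62, SE 0.14, adjusted p = 0.00853 by edgeR) and foxa2 (log2 -0.72, SE 0.17, adjusted p = 0.0121 by edgeR). foxa2 lost its call without vehicle replicate 2 or 10 mM replicate 3 (adjusted p = 0.0626 and 0.0538). hnf4a (log2 0.06, SE 0.13), whose product drives many genes of secreted liver proteins in mammals, did not pass.

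The interleukin 6 and STAT3 pathway, which raises fibrinogen in the acute phase in mammals, had 1 gene higher and 1 lower of 12 tested (median log2 change 0.21), near the 9.74% and 7.43% of all tested genes. cebpb (ENSDARG00000042725) rose by 1.27 (SE 0.16, adjusted p = 0.000173 by edgeR), and the feedback inhibitor gene socs1a (ENSDARG00000038095) fell by 1.79 on the log2 scale (SE 0.38, adjusted p = 0.00602 by edgeR) from 5.72 CPM. stat3 (log2 0.17, SE 0.21), il6r (log2 0.21, SE 0.12) and il6st (log2 0.04, SE 0.14) did not pass. Of genes with a fibrinogen-like domain, angptl4 rose and angptl6 fell at 10 mM against 1 mM (log2 1.18 and -0.72, adjusted p = 0.00431 and 0.00303 by edgeR), both under all 17 alternatives, and jak2a of the STAT3 list rose by 0.48 (adjusted p = 0.0189 by edgeR), a call lost with only the 6 libraries compared and without 10 mM replicate 1 (adjusted p = 0.0591 and 0.0804).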
